A study of Mus musculus with 3 samples.

Results

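The genes described here are 10 members of the BCL2 family, taken by name from the deposited matrices of mouse spleen B cells. They are the anti-death genes Bcl2, Bcl2l1, Mcl1, Bcl2a1a, Bcl2a1b and Bcl2a1d, the BH3-only death inducers Bcl2l11, Bbc3 and Pmaip1, and the pore-forming Bax. All 10 had a row among the 32285 genes of the files. The 3 Bcl2a1 copies were also added into 1 value (the Bcl2a1 sum), because reads can be divided between them.

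The cells came from spleens of female mice of the inbred strain BXD2, which is prone to a lupus-like disease; the labels call them wild-type BXD2 and give no age. Every mouse was injected with R848, which activates TLR7, at 40 µg for 20 g of mouse. Injected 2 hours earlier was either IL-4 (5 µg) held in a complex with 25 µg of the anti-IL-4 antibody BVD4-1D11, called IL-4+R848 here, or the same amount of that antibody by itself, called R848. The whole course was given again 2 days later, and 2 further days passed before the spleens were collected. The series describes 3 mice per group and asks how TLR7-driven B cell development proceeds with IL-4. B cells were purified by negative selection, marked with a hashtag antibody for each treatment and pooled into 3 single-cell 5' libraries (sets 1 to 3). Neither group lacked R848, and the R848 group carried the anti-IL-4 antibody.

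Anti-death members hold BAX and BAK in check at the mitochondrial outer membrane, and BH3-only members release that block by binding them. When BAX or BAK forms pores, cytochrome c leaves the mitochondrion and caspases are activated. BCL2 and MCL1 are both needed by mature B cells, BCL2L11 (BIM) limits B cell numbers, and Bcl2a1 genes are NF-kB targets induced by antigen receptor signals. IL-4 is known to prolong B cell survival in culture and signals through STAT6.

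Cells kept per set were 7146, 5641 and 7530 for R848 and 5125, 4579 and 5081 for IL-4+R848, at median depths of 5094, 5932 and 4446 against 6208, 6995 and 5199 UMIs. Between 219 and 289 cell barcodes were shared by a pair of sets, at most 2.03% of the smaller. RNA clusters were named from marker lists as follicular-like (16496 cells), transitional-like (4069), activated-like (3017), plasmablast-like (2960), marginal zone-like (1893), germinal center-like (1700) and cycling-like cells (806). A cluster led by S100a6 and Zbtb32 held 1728 cells, 2232 cells stayed unnamed and 201 NK-like cells were left out. The names did not follow the lists alone. An unnamed cluster of 683 cells had 5 of 5 transitional and 5 of 6 precursor markers raised over other cells. Another, of 617 cells with a median of 1427 UMIs, had 5 of 6 follicular markers raised. The cluster named transitional-like had 3 of 5 transitional markers raised. UMIs were added up per set, treatment and class, giving 458076 to 22502967 UMIs per sum. Levels are CPM, UMIs scaled to a common library size with TMM factors, as means ± SD over 3 sets. Log2 fold changes are given ± their standard error. CPM is relative to the UMIs of a sum, so a lower CPM need not mean fewer UMIs per cell. Against all kept cells, median UMIs per cell were 2.29 to 4.57 times as high in the plasmablast-like clusters. They were 2.38 times as high in germinal center-like, 2.29 times in cycling-like and 0.498 times in transitional-like cells. Since no label ties a set to 1 mouse of each treatment, the p-values speak of the spread among the 3 sets, and that spread may be technical.

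The Bcl2a1 copies are near-identical, so their start regions are shown before their values. In GENCODE on mouse build mm10 (GRCm38), Bcl2a1d lies at chr9:88723285-88731914 on the minus strand, Bcl2a1a at chr9:88956900-88962419 and Bcl2a1b at chr9:89199209-89207827, both on the plus strand. The RefSeq windows (GRCm38.p6) from 250 bases before to 50 bases after each start follow, 5′ to 3′, with capitals for bases that differ from Bcl2a1b where they align. The windows are chr9:89199023-89199322 for Bcl2a1b, chr9:88956670-88956969 for Bcl2a1a and, on the minus strand, chr9:88731801-88732100 for Bcl2a1d.
Bcl2a1b: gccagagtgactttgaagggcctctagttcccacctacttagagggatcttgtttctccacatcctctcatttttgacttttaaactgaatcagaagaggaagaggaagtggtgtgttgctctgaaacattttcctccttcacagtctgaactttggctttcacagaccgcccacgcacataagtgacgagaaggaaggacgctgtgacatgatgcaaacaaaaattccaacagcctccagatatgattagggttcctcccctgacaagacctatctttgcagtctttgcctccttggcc
Bcl2a1a: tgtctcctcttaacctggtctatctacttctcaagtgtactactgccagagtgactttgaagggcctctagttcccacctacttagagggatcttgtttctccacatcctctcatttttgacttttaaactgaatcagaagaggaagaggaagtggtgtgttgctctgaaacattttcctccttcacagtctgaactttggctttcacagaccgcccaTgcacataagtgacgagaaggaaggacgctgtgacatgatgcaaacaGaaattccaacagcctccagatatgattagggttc
Bcl2a1d: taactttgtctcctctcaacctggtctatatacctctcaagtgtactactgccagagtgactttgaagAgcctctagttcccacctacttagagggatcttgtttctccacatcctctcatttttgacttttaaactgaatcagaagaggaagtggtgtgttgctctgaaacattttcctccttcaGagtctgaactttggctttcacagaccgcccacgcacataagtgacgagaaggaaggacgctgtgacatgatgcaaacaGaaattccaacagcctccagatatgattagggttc
In the aligned stretch Bcl2a1a differed from Bcl2a1b at 2 bases (99.2% identity) and Bcl2a1d at 3 bases (98.8%), with 6 gap bases. Across whole transcripts, Bcl2a1a and Bcl2a1b were 98.2% identical, Bcl2a1a and Bcl2a1d 98.8%, and Bcl2a1b and Bcl2a1d 99.1%. Of all 90-base windows, 47% in Bcl2a1a, 36.1% in Bcl2a1b and 61.6% in Bcl2a1d occurred letter for letter in another copy. Within the first 300 bases, the end that 5' libraries capture, the shares were lower, at 34.1%, 13.7% and 29.9%. How reads that match several copies were counted is not given in the sources used here, so values of single copies are uncertain and the sum is the firmer measure. Windows were found for 9 of the 10 members (14 windows) and searched on both strands for TTCNNNNGAA (the spacing preferred by STAT6), TTCNNNGAA (that of other STAT proteins) and GGGNNTTTCC (an NF-kB core). None of the 3 was found in the Bcl2a1 windows, 1 member window (Bcl2l1) held the first, 0 the second and 3 (Bcl2l1, Mcl1 and Bbc3) the third. Of 32851 windows of this length, 6.95%, 8.3% and 1.63% held them.

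Among the anti-death genes, Bcl2 was highest in marginal zone-like and lowest in germinal center-like cells. In R848 cells its mean was 96.2 ± 9.28 CPM in marginal zone-like, 85.4 ± 7.54 in follicular-like, 82.8 ± 7.94 in activated-like and 80.8 ± 7.99 in Zbtb32-cluster cells, classes whose sets overlapped. Cycling-like cells had 53.2 ± 3.27 CPM of Bcl2 and transitional-like cells 52.4 ± 10.3, again overlapping. Bcl2 was at 18.3 ± 5.14 CPM in plasmablast-like cells and at 6.53, 6.38 and 7.53 CPM in sets 1 to 3 of germinal center-like cells, below every other class. Germinal center B cells are known for repressing Bcl2 through BCL6.

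The Bcl2a1 sum had another order. With R848 it was highest in activated-like cells (179 ± 4.77 CPM), then marginal zone-like (156 ± 9.4), cycling-like (127 ± 20.3), Zbtb32-cluster (107 ± 8.36), follicular-like (74.1 ± 8.12) and germinal center-like cells (72.3 ± 9.4). Plasmablast-like cells had 29.4 ± 2.81 CPM and transitional-like cells 14.4 ± 4.24. Neighbours in this order overlapped in their sets from marginal zone-like to cycling-like, from cycling-like to the Zbtb32 cluster, and between follicular-like and germinal center-like cells. Bcl2a1b and Bcl2a1d were among the leading genes of 1 of the activated-like clusters, although the members took no part in the clustering.

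Mcl1, which encodes a short-lived anti-death protein, lay between 343 ± 17 CPM (germinal center-like, R848) and 818 ± 22.3 CPM (transitional-like, R848). Bcl2l1 (BCL-XL) was at 20.8 ± 2.19 CPM in plasmablast-like cells and at a mean of 6.0 CPM or less in the other classes with R848. These levels by class are descriptions without a test, since the classes were drawn from the RNA of the same cells.

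**Figure D1:**
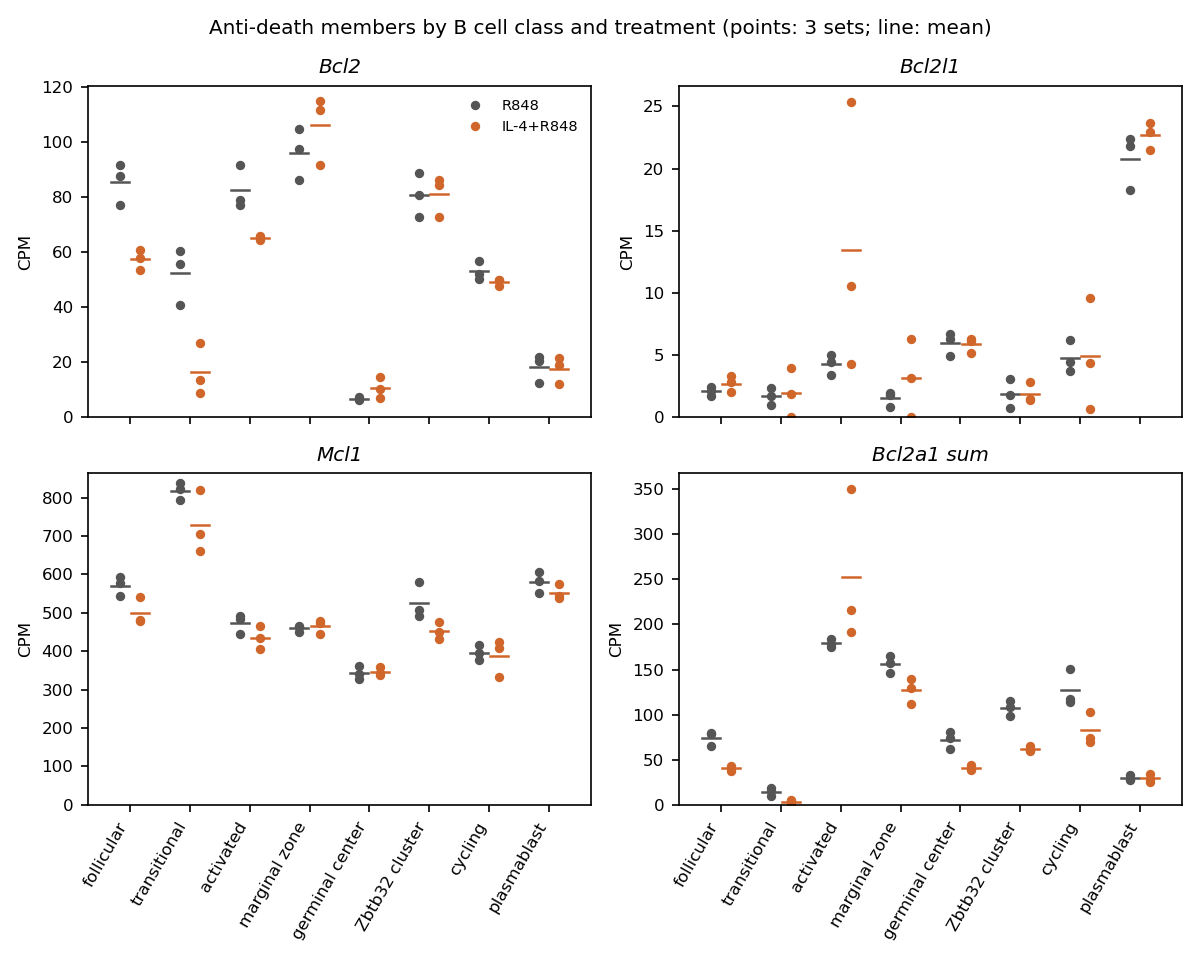
Level in CPM (vertical axis, from 0) of Bcl2, Bcl2l1, Mcl1 and the Bcl2a1 sum in each B cell class (horizontal axis), with 1 point per set and a line at the mean, for R848 and IL-4+R848. Bcl2 was lowest in germinal center-like cells (6.81 CPM with R848) and Bcl2l1 highest in plasmablast-like cells (20.8 and 22.7 CPM).

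Among the death genes, Bcl2l11 (BIM) stood apart in plasmablast-like cells, at 149, 135 and 106 CPM in sets 1 to 3 with R848 and 95.9, 126 and 107 CPM with IL-4+R848. No other class had a mean Bcl2l11 above 35 CPM in either treatment. Bbc3 (PUMA), a p53 target, was highest in the Zbtb32 cluster (14.3 ± 3.44 CPM with R848) and germinal center-like cells (11.1 ± 1.37), which overlapped, and lowest in cycling-like cells (2.7 ± 1.13). Pmaip1 (NOXA), which opposes MCL1, was at 16.1 ± 1.37 CPM in plasmablast-like and 15 ± 1.61 in Zbtb32-cluster cells, which overlapped, and at 2.64 ± 0.443 in transitional-like cells. Bax ranged over class means from 136 (cycling-like) to 180 CPM (germinal center-like) with R848.

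**Figure D2:**
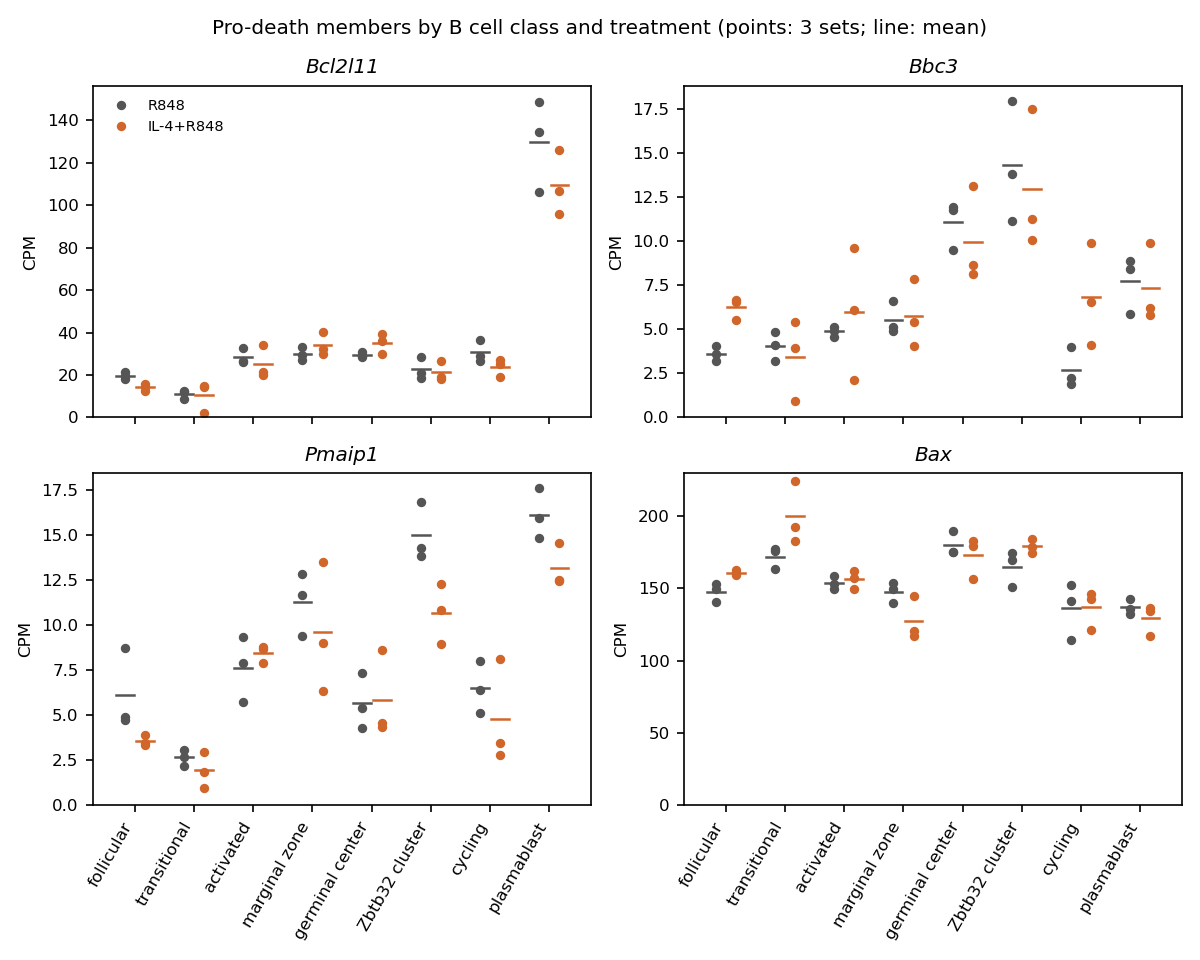
Level in CPM (vertical axis, from 0) of Bcl2l11, Bbc3, Pmaip1 and Bax in each B cell class (horizontal axis), with 1 point per set and a line at the mean, for R848 and IL-4+R848. Bcl2l11 stands apart in plasmablast-like cells, with means of 130 CPM (R848) and 110 CPM (IL-4+R848).

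Differences between populations were tested on cells gated by surface antibody instead of RNA. Each gate was compared with a naive gate (IgD high, CD23 high, CD138 low, GL7 low; 70.6% follicular-like cells) over both treatments and 3 sets with edgeR's quasi-likelihood test, with p-values adjusted over all genes. CD138-high, IgD-low cells, 80.2% of them plasmablast-like, had Bcl2l11 at 110 ± 12.4 CPM with R848 and 111 ± 11.1 with IL-4+R848, against 19.1 ± 2.87 and 14.4 ± 2.01 in the naive gate. Bcl2l11 was higher by 2.67 ± 0.13 (adjusted p = 1.12e-08) on the log2 scale, Bcl2l1 by 2.91 ± 0.14 (adjusted p = 1.10e-08) and Pmaip1 by 1.33 ± 0.15 (adjusted p = 1.38e-05). Bcl2 fell by 2.24 ± 0.14 (adjusted p = 1.21e-07) and the Bcl2a1 sum fell by 1.40 ± 0.20 (adjusted p = 6.95e-05). Both a BH3-only gene and an anti-death gene were thus raised in CD138-high cells. These changes are relative to all UMIs. At the depth sequenced, 21.8% of plasmablast-like and 26.2% of follicular-like R848 cells had a Bcl2a1 UMI, and 24.0% and 18.1% with IL-4+R848. For Bcl2 these shares were 16.3% and 31.2% with R848 and 15.6% and 26.8% with IL-4+R848. Bbc3 was higher by 0.73 ± 0.19 (adjusted p = 0.00495), a call lost (adjusted p no longer under 0.05) without set 1 (adjusted p = 0.107), and Bax fell by 0.23 ± 0.06 (adjusted p = 0.00383). Mcl1 gave no call (0.02 ± 0.06, adjusted p = 0.785). Of 9 members tested, 4 rose and 4 fell, in a comparison where 78.6% of 11440 genes passed.

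GL7-high, CD95-high, IgD-low cells (53.8% germinal center-like) also had less Bcl2, at 15.2 ± 1.31 CPM with R848 against 79.1 ± 6.29 in the naive gate. Bcl2 fell by 1.90 ± 0.22 (adjusted p = 9.65e-06) and Mcl1 by 0.48 ± 0.06 (adjusted p = 2.51e-05), both relative to all UMIs. At the depth sequenced, 95.8% of germinal center-like and 86.9% of follicular-like R848 cells had an Mcl1 UMI. For Bcl2 these shares were 9.79% and 31.2%. Bbc3 rose by 1.11 ± 0.22 (adjusted p = 7.02e-04), Bcl2l1 by 1.05 ± 0.19 (adjusted p = 4.29e-04) and Bcl2l11 by 0.73 ± 0.11 (adjusted p = 1.03e-04). Bax rose by 0.17 ± 0.05 (adjusted p = 0.00783), a call lost without set 1 (adjusted p = 0.0956) or without set 3 (adjusted p = 0.138) and with 10% gates (adjusted p = 0.102). The 10% gates held cells in the top 10% of only 1 tag among IgD, CD138, GL7, CD21 and CD80. Their reference was the top 10% of IgD, with no condition on CD23, so they draw other cells than the gates above. The Bcl2a1 sum gave no call (-0.08 ± 0.14, adjusted p = 0.618). In this gate 4 of 9 members rose and 2 fell, against 69.7% of 11112 genes called.

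CD21-high, CD23-low cells (34.2% marginal zone-like, 26.1% follicular-like) had 4 of 9 members higher and 0 lower, where 15.6% of 11030 genes passed and 8.19% were higher. Bcl2l11 rose by 0.76 ± 0.11 (adjusted p = 6.58e-04). Pmaip1 rose by 0.82 ± 0.16 (adjusted p = 0.00398), lost without set 2 (adjusted p = 0.076) and with the 10% gates (adjusted p = 0.677). The Bcl2a1 sum rose by 0.61 ± 0.14 (adjusted p = 0.0108), lost without set 2 (adjusted p = 0.0762) or without set 3 (adjusted p = 0.0592). Of its copies, Bcl2a1b rose by 0.55 ± 0.13 (adjusted p = 0.0138) and Bcl2a1d by 0.57 ± 0.18 (adjusted p = 0.0463). The call of Bcl2a1b was lost without set 2 (adjusted p = 0.0779) or without set 3 (adjusted p = 0.0805) and that of Bcl2a1d without any 1 set (adjusted p = 0.0553, 0.251 and 0.137 without sets 1, 2 and 3).

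CD80-high, IgD-low cells (63.9% Zbtb32 cluster) had more of the p53 targets Bbc3 and Pmaip1. Bbc3 was at 24.6, 8.28 and 11.5 CPM in sets 1 to 3 with R848, against 3.09, 2.92 and 4.18 in the naive gate, and rose by 1.73 ± 0.24 (adjusted p = 1.57e-04). Pmaip1 rose by 1.36 ± 0.15 (adjusted p = 2.16e-05). Bcl2a1d rose by 0.53 ± 0.16 (adjusted p = 0.0239), lost without set 2 (adjusted p = 0.111) or without set 3 (adjusted p = 0.0543), while the Bcl2a1 sum gave no call (0.18 ± 0.11, adjusted p = 0.242). Bax rose by 0.18 ± 0.05 (adjusted p = 0.0198), lost without set 1 (adjusted p = 0.196) or without set 2 (adjusted p = 0.166) and with the 10% gates (adjusted p = 0.070). Mcl1 fell by 0.18 ± 0.06 (adjusted p = 0.0336), lost without any 1 set (adjusted p = 0.0823, 0.104 and 0.127 without sets 1, 2 and 3) and with the 10% gates (adjusted p = 0.588). Bcl2a1a, which passed the filter on low counts through the CD80 sums alone, is given as counts further on. Of the other 9 members 4 rose and 1 fell, in a comparison where 33.4% of 11056 genes passed.

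**Figure D3:**
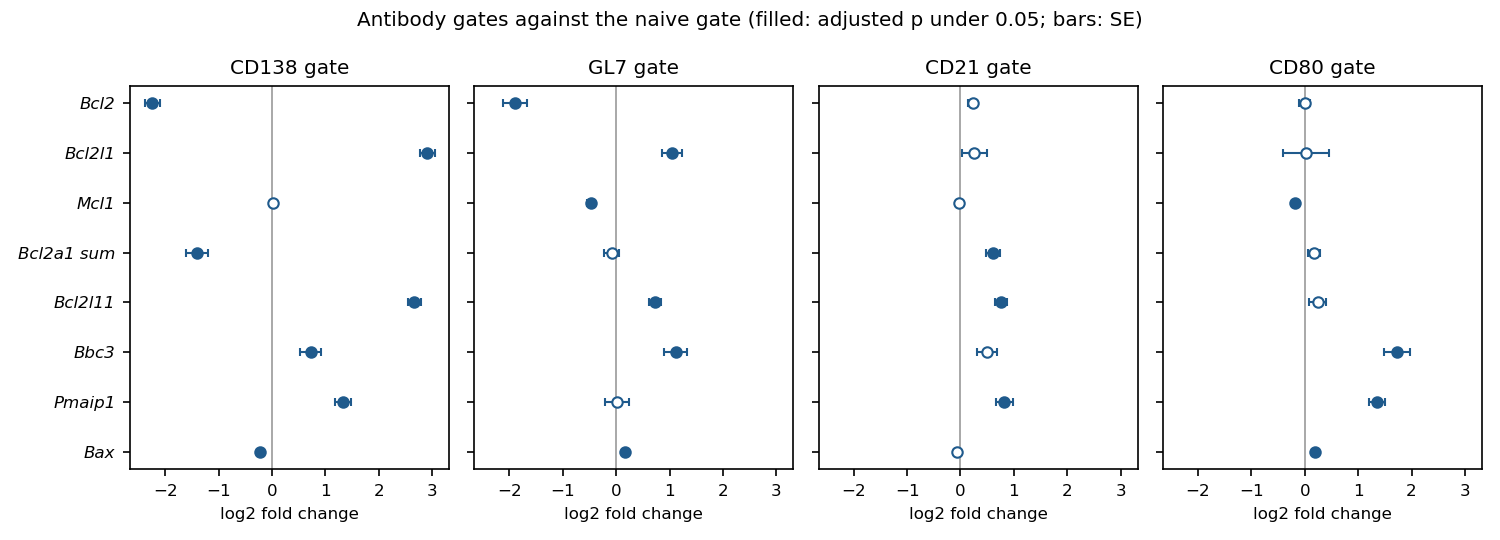
Log2 fold change ± SE (horizontal axis) of the family measures (vertical axis) in each antibody gate against the naive gate, filled where the adjusted p was under 0.05. Bcl2 lies to the left in the CD138 gate (-2.24) and the GL7 gate (-1.90), and Bcl2l1 (2.91) and Bcl2l11 (2.67) to the right in the CD138 gate.

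Bcl2a1a was counted mainly outside naive cells. In the CD80 gate 71 UMIs of Bcl2a1a were counted against 3 in the naive gate, a ratio of 177 per UMI sequenced (95% exact interval 58.1 to 878, counting error only). Bcl2a1a passed the filter on low counts there through the CD80 sums alone, so no p is given. In the CD138 gate 41 Bcl2a1a UMIs gave a ratio of 20.8 (6.64 to 105) to the naive gate. The Zbtb32 cluster held 71 Bcl2a1a UMIs and the far larger follicular-like class 2. Of the UMIs of all 3 copies, Bcl2a1a took 6.25% in R848 cells of the Zbtb32 cluster, 3.22% in plasmablast-like R848 cells and 0.0417% in follicular-like R848 cells. In the last, Bcl2a1b took 84.6% and Bcl2a1d 15.4%. With IL-4+R848, Bcl2a1a took 5.78% in the Zbtb32 cluster (24 UMIs), 7.07% in plasmablast-like (22 UMIs) and 0.0417% in follicular-like cells. Which of the first 2 classes had the larger share thus differed between treatments in these pooled counts, which rest on few UMIs. The sets did not go together. In plasmablast-like cells the Bcl2a1a level with IL-4+R848 was 8.73, 0.364 and 0.592 times that with R848 in sets 1 to 3. No dependence on treatment can be drawn from these shares.

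Treatment was then compared within each class. In follicular-like cells Bcl2 and the Bcl2a1 copies were lower with IL-4+R848. Bcl2 was at 87.7, 91.5 and 77 CPM in sets 1 to 3 with R848 and at 58.1, 60.8 and 53.4 CPM with IL-4+R848. The treatments did not overlap, and Bcl2 fell by 0.57 ± 0.08 (adjusted p = 6.28e-04). The Bcl2a1 sum was at 78, 79.4 and 64.7 CPM with R848 and at 37.9, 43.4 and 40.0 CPM with IL-4+R848, again without overlap, and fell by 0.87 ± 0.09 (adjusted p = 9.29e-05). The copies fell together, Bcl2a1b by 0.86 ± 0.09 (adjusted p = 1.03e-04) and Bcl2a1d by 0.93 ± 0.13 (adjusted p = 8.26e-04). Leaving out any 1 set kept these 4 calls. Bcl2a1a, with 1 UMI with R848 and 1 with IL-4+R848, was below the filter on low counts. In all, 1 of 9 members tested rose and 5 fell in these cells, where 14.1% of 11007 genes passed (7.21% higher and 6.91% lower).

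Neither of the other anti-death genes was called. Bcl2l1 was at 2.44, 2.16 and 1.69 CPM with R848 and 3.29, 2.82 and 2.02 CPM with IL-4+R848, which overlapped (0.38 ± 0.24, adjusted p = 0.359). Mcl1 was at 577, 544 and 592 CPM with R848 and 480, 481 and 542 CPM with IL-4+R848, which did not overlap (-0.19 ± 0.06, adjusted p = 0.0727). With the set as a block Mcl1 passed (adjusted p = 0.00727; 19.4% of 11237 genes called), as it did without set 3 (adjusted p = 0.0453).

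The BH3-only genes moved in both directions in follicular-like cells. Bbc3 was at 3.62, 3.2 and 4.03 CPM with R848 and 5.52, 6.57 and 6.68 CPM with IL-4+R848, and rose by 0.79 ± 0.16 (adjusted p = 0.00619), a call lost without set 2 (adjusted p = 0.0996). Bcl2l11 was at 19.7, 18.1 and 21.4 CPM with R848 and 15.6, 14.4 and 12.6 CPM with IL-4+R848, and fell by 0.47 ± 0.10 (adjusted p = 0.0116), lost without set 2 (adjusted p = 0.0552) or without set 3 (adjusted p = 0.0985). Neither gene overlapped between treatments. Pmaip1 was at 8.68, 4.7 and 4.88 CPM with R848, set 1 standing above the others, and at 3.9, 3.42 and 3.31 CPM with IL-4+R848. It fell by 0.78 ± 0.23 (adjusted p = 0.0474), lost without any 1 set (adjusted p = 0.16, 0.106 and 0.0945 without sets 1, 2 and 3). Bax, the effector these genes act on, was at 148 ± 6.18 and 161 ± 2.04 CPM (0.13 ± 0.05, adjusted p = 0.145).

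Treatment split the follicular-like cells in the clustering. They made up 32.8% to 34.5% of R848 cells and 63.8% to 67.6% of IL-4+R848 cells of a set, and 2 of their 4 clusters were 99.5% and 97.1% IL-4+R848 cells, with Bcl2a1 sums of 28.4 ± 1.41 and 55 ± 7.65 CPM in those cells. The other 2 clusters were 8.49% and 6.64% IL-4+R848 cells. Of 6 follicular markers, 1 and 0 were raised over other cells in the 2 clusters of IL-4+R848 cells, 2 in the first of the other clusters and 4 in the second. The first 3 were named because the follicular list was still their highest, with high IgD and CD23 tags in the clusters of IL-4+R848 cells, so their name is weaker. In the other 2 clusters the Bcl2a1 sum was 73.9 ± 6.98 CPM in R848 cells against 58 ± 16.8 in IL-4+R848 cells, and 78.7 ± 10.0 against 76 ± 14.4, overlapping in both. Bcl2 in these clusters was 104 ± 12.7 against 83.7 ± 18.9 CPM and 81.5 ± 5.73 against 68 ± 8.19 CPM. The difference of the class as a whole was thus larger than that within its shared clusters, which hold few IL-4+R848 cells and were not tested.

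The same 6 members passed, in the same direction, under 5 other definitions of the cells. These definitions drew overlapping cells from the same libraries, so their agreement is not independent support. In cells gated only on IgD protein (10.4% of 11885 genes called) the Bcl2a1 sum was 101 ± 7.55 CPM with R848 and 54 ± 6.12 with IL-4+R848, and Bcl2 75 ± 5.79 and 58.8 ± 4.02 CPM. The makeup of that gate differed between treatments: follicular-like cells were 48.3% of it with R848 and 82.7% with IL-4+R848, activated-like 18.3% and 3.26%, transitional-like 14.7% and 1.83%, and marginal zone-like 8.13% and 1.83%. Its summed markers, R848 against IL-4+R848, were 2729 to 3339 against 2266 to 2460 CPM (follicular), 236 to 295 against 151 to 172 (marginal zone), 723 to 747 against 595 to 615 (transitional), 195 to 235 against 121 to 141 (Zbtb32 cluster), 42.4 to 51 against 19.8 to 27.8 (B-1) and 298 to 448 against 224 to 258 (cycling). The part of these shifts in the gate's difference was not tested. In follicular-like cells from a clustering without 1762 genes called between treatments (12.2% of 11314 genes called), whose clusters held 44.6% to 83.8% cells that had been follicular-like before, the Bcl2a1 sum was 108 ± 6.42 and 55.3 ± 3.19 CPM. Over all 6 definitions the log2 fold change of the Bcl2a1 sum ran from -0.95 to -0.86, that of Bcl2 from -0.58 to -0.35, that of Bcl2l11 from -0.60 to -0.47, that of Pmaip1 from -0.78 to -0.61 and that of Bbc3 from 0.59 to 0.79. The other 3 definitions were a stricter hashtag rule, a looser cell filter, and follicular-, transitional- and activated-like cells added together (14.6% of 11508 genes called). In the clustering without the 1762 genes no activated-like class formed. How many activated-like cells joined the follicular-like ones there was not counted.

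Summed markers of B cell states also differed between treatments within follicular-like cells. The follicular list itself summed to 3504 to 4349 CPM with R848 and 2450 to 2675 with IL-4+R848, 5 of 6 genes being higher in every R848 sum. The activated list spanned 825 to 1274 and 1105 to 1170 CPM, with 5 of 10 genes higher in every R848 sum and 1 in every IL-4+R848 sum. The B-1 list summed to 38.4 to 50.3 and 17.2 to 22.8 CPM, with 5 of 5 genes higher in every R848 sum. The Zbtb32-cluster list was also lower with IL-4+R848 (163 to 209 against 108 to 129 CPM, 3 of 10 genes higher in every R848 sum). The plasmablast list was the other way round, at 708 to 777 against 818 to 945 CPM, with 2 of 10 genes higher in every IL-4+R848 sum and 3 of 10 in every R848 sum. The transitional list was at 573 to 578 against 582 to 613 CPM and the precursor list at 11.1 to 13.8 against 6.11 to 7.86 CPM. Their part in the results was not tested. How many of all genes lay apart between treatments in this way was not counted. The counts of marker genes here and in the classes below therefore have no background share beside them. The T cell list summed to 20.5 to 29.6 against 25.6 to 29.3 CPM, 2 of 7 genes being higher in every IL-4+R848 sum and Cd3e, Cd4 and Cd8a at 0, and the monocyte or macrophage list summed to 9.83 to 11.9 and 9.91 to 11.4 CPM.

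Counted per cell and thinned to 2000 UMIs, the share of follicular-like cells with a Bcl2a1 UMI was 12.1 ± 0.899% with R848 and 6.7 ± 0.36% with IL-4+R848 (26.2 ± 4.57% and 18.1 ± 3.46% unthinned). The share with a Bcl2 UMI was 15.4 ± 0.758% and 9.33 ± 0.636% (31.2 ± 6.04% and 26.8 ± 4.65% unthinned). Thinning left out 169 shallower R848 cells and fewer IL-4+R848 cells. No class here is known to lack these genes, so no background share was set; the thinned Bcl2 share in germinal center-like cells with R848 was 1.53 ± 0.125%.

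Among the other classes the Bcl2a1 sum was called in the Zbtb32 cluster and in germinal center-like cells. In the Zbtb32 cluster it was at 98.1, 115 and 109 CPM with R848 and 65, 60.2 and 59.8 CPM with IL-4+R848, without overlap, and fell by 0.78 ± 0.11 (adjusted p = 0.00393), a call lost without set 2 (adjusted p = 0.0731) or without set 3 (adjusted p = 0.0526). Bcl2a1b fell by 0.75 ± 0.10 (adjusted p = 0.00399), lost without set 2 (adjusted p = 0.0702) or without set 3 (adjusted p = 0.0526). Bcl2a1d fell by 0.81 ± 0.18 (adjusted p = 0.0406), lost with the set as a block (adjusted p = 0.10), with DESeq2 (adjusted p = 0.28), on reclustering without treatment genes (adjusted p = 0.535) and without any 1 set (adjusted p = 0.116, 0.288 and 0.236 without sets 1, 2 and 3). These 2 of 9 members compare with 2.75% of 8793 genes called. Markers differed there too: R848 against IL-4+R848, the cluster's own list summed to 452 to 544 against 332 to 368 CPM (8 of 10 genes higher in every R848 sum), the B-1 list to 178 to 210 against 122 to 139, the cycling list to 84.9 to 123 against 54.1 to 79, the plasmablast list to 1645 to 2622 against 1383 to 1450, the marginal zone list to 152 to 164 against 121 to 149 and the follicular list to 2198 to 2802 against 1883 to 2134 CPM. The activated list went the other way, at 582 to 917 against 925 to 1058 CPM. Their part was not tested. Bcl2 overlapped between treatments in this cluster, at 80.8 ± 7.99 and 81.1 ± 7.26 CPM.

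In germinal center-like cells the Bcl2a1 sum was at 80.9, 73.8 and 62.3 CPM with R848 and 43.9, 39.6 and 39 CPM with IL-4+R848, without overlap. It fell by 0.82 ± 0.12 (adjusted p = 0.0277), a call lost without any 1 set (adjusted p = 0.14, 0.247 and 0.0592 without sets 1, 2 and 3). The germinal center list was lower with IL-4+R848 as well (2134 to 2262 against 1597 to 1867 CPM, 4 of 9 genes higher in every R848 sum), as were the Zbtb32-cluster list (76.2 to 94.8 against 58.7 to 72.7 CPM), the marginal zone list (105 to 146 against 87.3 to 103 CPM) and the conventional dendritic list (22.9 to 24.5 against 14.5 to 16.2 CPM). The follicular list overlapped (341 to 521 against 476 to 796 CPM), with 4 of 6 genes higher in every IL-4+R848 sum. Their part was not tested. Of 9 members tested singly 0 passed by edgeR, in a class where 0.256% of 9753 genes did, and 759 genes had an unadjusted p under 0.05. With the set as a block Bcl2a1b passed (adjusted p = 0.0102; 1.13% of 9986 genes called), as it did with DESeq2 (adjusted p = 3.34e-04). Bcl2 was at 6.53, 6.38 and 7.53 CPM with R848 and 10.3, 14.7 and 6.93 CPM with IL-4+R848, which overlapped (0.66 ± 0.24, adjusted p = 0.50).

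In transitional-like cells Bcl2 was at 60.5, 55.8 and 40.8 CPM with R848 and 27.1, 13.4 and 8.85 CPM with IL-4+R848, without overlap. It fell by 1.81 ± 0.29 (adjusted p = 0.00424), lost without set 2 (adjusted p = 0.139). In this class 2.68% of 8731 genes passed. Of the 10 members 5 were over the filter on low counts, Bcl2a1b and Bcl2l11 only through the R848 sums, as was the Bcl2a1 sum. The Bcl2a1 sum was at 14.8, 18.4 and 9.95 CPM with R848 and 5.43, 3.84 and 0.983 CPM with IL-4+R848, from 169 and 8 UMIs, and no p is given for it. No Bcl2a1d UMI was counted with IL-4+R848 against 24 with R848, so Bcl2a1d was at least 1.73-fold lower at a floor of 3 UMIs over the group. Within the class the follicular list summed to 3351 to 4316 against 2472 to 2879 CPM, the marginal zone list to 140 to 160 against 93.9 to 118, the B-1 list to 31.3 to 39.5 against 20.5 to 24.4 and the plasmablast list to 673 to 839 against 939 to 1161 CPM, R848 against IL-4+R848, and their part was not tested. The class held 884 to 1301 R848 cells but 151 to 342 IL-4+R848 cells per set. Clustered without genes called between treatments it held 711 to 875 IL-4+R848 cells per set, but only 49.8% of its cells had been transitional-like in the first clustering. In that mixed cluster Bcl2 fell by 1.08 ± 0.14 (adjusted p = 2.58e-04), the Bcl2a1 sum by 1.00 ± 0.16 (adjusted p = 0.00116) and Mcl1 by 0.28 ± 0.06 (adjusted p = 0.00634), with 13.4% of 9428 genes called.

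No member passed by edgeR in activated-like (1.98% of 9593 genes called), marginal zone-like (1.22% of 8828), cycling-like (1.34% of 8714) or plasmablast-like cells (0% of 10273). Activated-like cells had Bcl2a1 sums of 178, 184 and 175 CPM with R848 and 191, 350 and 216 CPM with IL-4+R848, set 2 standing above the others (0.50 ± 0.16, adjusted p = 0.167). They made up 11.9% to 13.7% of R848 cells and 2.62% to 2.91% of IL-4+R848 cells, and no such class formed when genes called between treatments were left out of the clustering. Bcl2l1 in activated-like cells was at 5.03, 3.39 and 4.46 CPM with R848 and 4.29, 25.4 and 10.6 CPM with IL-4+R848, from 6, 29 and 11 UMIs in the latter (1.60 ± 0.46, adjusted p = 0.111; adjusted p = 0.0392 without set 1).

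In marginal zone-like cells the Bcl2a1 sum was at 165, 157 and 147 CPM with R848 and 112, 130 and 139 CPM with IL-4+R848, without overlap (-0.27 ± 0.10, adjusted p = 0.354). The clustering without genes called between treatments put 317 to 344 IL-4+R848 cells per set in this class, where the first clustering put 80 to 130. Only 41.8% of its cells had been marginal zone-like before. In that mixed cluster the Bcl2a1 sum fell by 0.71 ± 0.11 (adjusted p = 0.00159), Bcl2a1b by 0.70 ± 0.11 (adjusted p = 0.00248) and Bcl2a1d by 0.80 ± 0.16 (adjusted p = 0.0125), with 4.13% of 9592 genes called. Cycling-like cells had Bcl2a1 sums of 127 ± 20.3 and 82.5 ± 18.1 CPM (-0.60 ± 0.16, adjusted p = 0.121). Plasmablast-like cells had 29.4 ± 2.81 and 29.6 ± 4.52 CPM, a difference of 0.02 ± 0.13, and their Bcl2l11 differed by -0.24 ± 0.16 and Bcl2l1 by 0.14 ± 0.12, none of them called. In that class edgeR called 0 genes, with 489 at an unadjusted p under 0.05, and DESeq2 called 30.

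**Figure D4:**
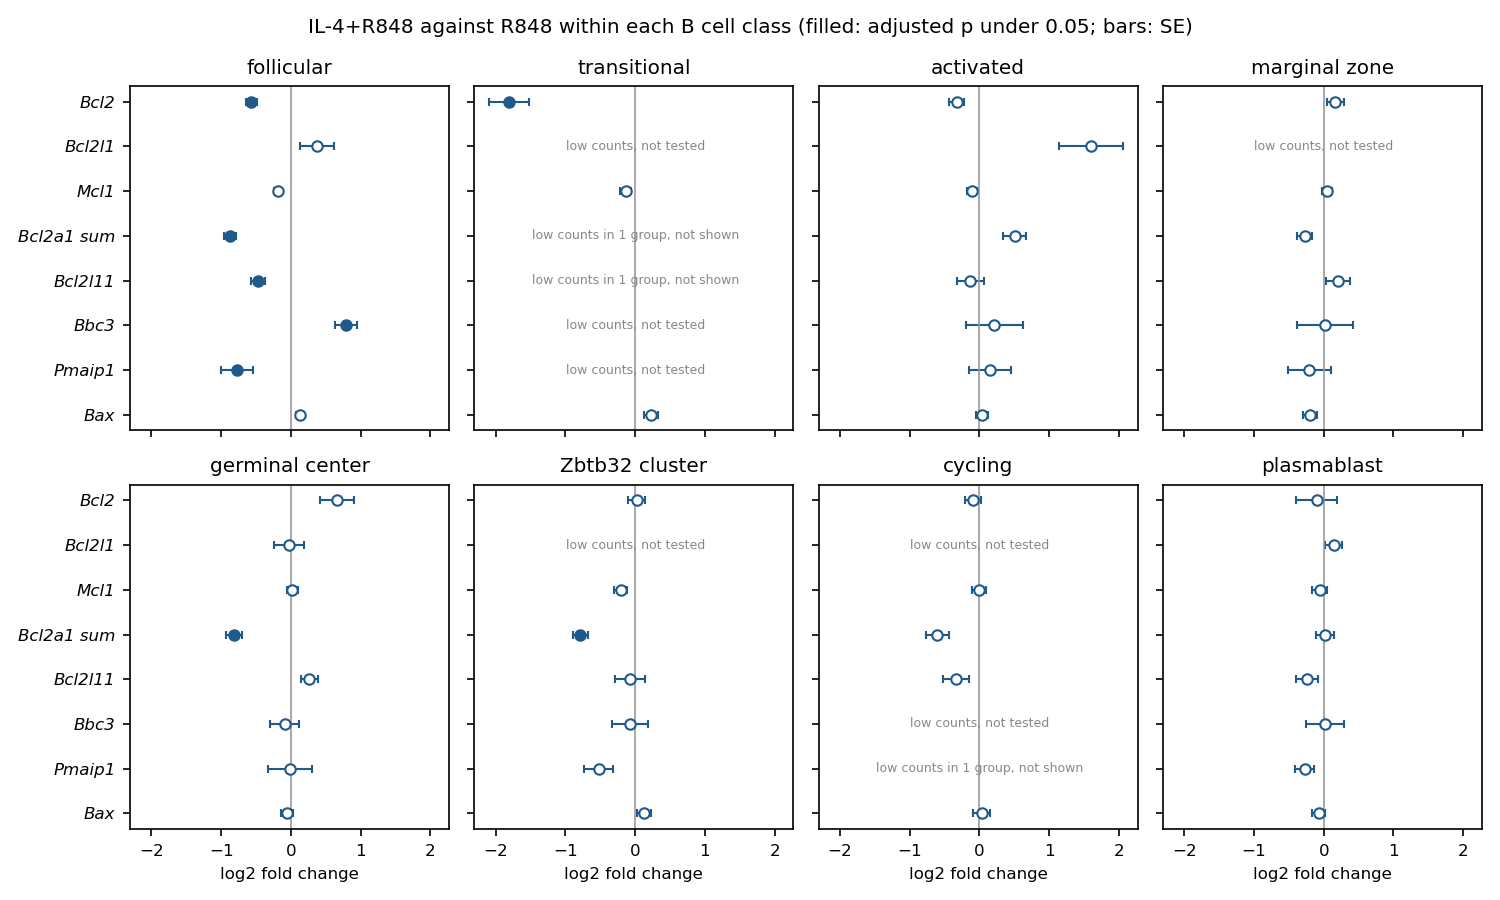
Log2 fold change ± SE (horizontal axis) of the family measures (vertical axis) for IL-4+R848 against R848 in each B cell class, filled where the adjusted p was under 0.05; values that passed the filter on low counts through 1 treatment alone are not drawn. The Bcl2a1 sum is filled and left of 0 in follicular (-0.87), germinal center (-0.82) and Zbtb32-cluster cells (-0.78), and Bbc3 is filled and right of 0 in follicular cells (0.79).

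Whether the treatment difference of a class differed from that of follicular-like cells was tested in 1 fit over all classes and 10818 genes, each value being the class's log2 fold change minus the follicular-like one. This fit took the class sums of a set as separate observations, though they share a library, and pooled the spread over classes. Its p-values can therefore be smaller than those of the tests within a class. In activated-like cells (0.416% of genes called) the Bcl2a1 sum differed by 1.37 ± 0.23 (adjusted p = 9.37e-04), lost without set 2 (adjusted p = 0.0842), Bcl2a1b by 1.35 ± 0.24 (adjusted p = 0.00242), lost without set 1 (adjusted p = 0.0785) or without set 2 (adjusted p = 0.171), and Bcl2a1d by 1.45 ± 0.20 (adjusted p = 8.96e-05), lost without set 2 (adjusted p = 0.089) or without set 3 (adjusted p = 0.0537). In plasmablast-like cells (1.62% called) the sum differed by 0.88 ± 0.24 (adjusted p = 0.0452), lost without set 1 (adjusted p = 0.372) or without set 3 (adjusted p = 0.337), and Bcl2a1d by 1.29 ± 0.25 (adjusted p = 0.00177), lost without set 1 (adjusted p = 0.0514) or without set 2 (adjusted p = 0.0653). Bcl2 differed by -1.25 ± 0.31 in transitional-like cells (adjusted p = 0.0467; 0.675% called), lost without any 1 set (adjusted p = 0.169, 0.596 and 0.238 without sets 1, 2 and 3). In germinal center-like cells (2.18% called) Bcl2 differed by 1.23 ± 0.29 (adjusted p = 0.0134), lost without set 1 (adjusted p = 0.176) or without set 2 (adjusted p = 0.545). No member passed this test in marginal zone-like (0.758% called), cycling-like (0.222%) or Zbtb32-cluster cells (0.222%).

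Added over all B cells of a set, where fewer cells of a class and less RNA per cell cannot be told apart, the Bcl2a1 sum was 80.9 ± 6.88 CPM with R848 and 49.2 ± 3.55 CPM with IL-4+R848. It fell by 0.72 ± 0.09 (adjusted p = 0.00422) and Bcl2a1b by 0.73 ± 0.09 (adjusted p = 0.00537). Bcl2a1d fell by 0.70 ± 0.09 (adjusted p = 0.00469), lost without set 2 (adjusted p = 0.0957). Bcl2l11 fell by 0.52 ± 0.08 (adjusted p = 0.0121), lost without set 2 (adjusted p = 0.117) or without set 3 (adjusted p = 0.114), and Pmaip1 by 0.55 ± 0.11 (adjusted p = 0.0231), lost without set 2 (adjusted p = 0.19) or without set 3 (adjusted p = 0.146). The 4 of 10 members that fell compare with 4.46% of 12912 genes lower and 10.2% called in either direction. Calls over all genes numbered 1317, but 151 without set 2 and 158 without set 3. Bcl2 was at 51.9 ± 4.82 and 48.3 ± 4.95 CPM (-0.10 ± 0.10, adjusted p = 0.557). Plasmablast-like cells, which held the most Bcl2l11, made up 9.02% to 12.2% of R848 cells and 4.02% to 8.47% of IL-4+R848 cells.

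Other genes of the pathway passed in follicular-like cells at a share near that of all genes: 6 of 48 tested (12.5%), against 14.1% of all genes. Of 15 other BCL2 family genes 10 were tested, of which Bid, a BH3-only gene whose protein is cleaved by caspase 8, rose by 0.28 ± 0.08 (adjusted p = 0.044) and the BH3-only Bmf fell by 1.04 ± 0.15 (adjusted p = 8.92e-04). Their median log2 fold change was -0.07, against -5.86e-04 over all genes. In the IgD gate 0 of 10 tested genes of this list rose and 1 fell, so the call of Bid was lost there. Over all B cells 0 of 12 passed. Of 20 caspase, inhibitor and death receptor genes 19 were tested and 0 passed (median -0.07). Among 20 upstream regulators 19 were tested (median 0.03), and 3 rose and 1 fell. The survival kinase Pim1 rose by 0.97 ± 0.10 (adjusted p = 9.72e-05), the repressor Bcl6 by 0.50 ± 0.11 (adjusted p = 0.0132) and Nfkb1 by 0.21 ± 0.06 (adjusted p = 0.0266), while Pim2, a kinase related to Pim1, fell by 1.15 ± 0.07 (adjusted p = 2.42e-06). Calls of these genes outside the 10 members were not checked with a set left out.

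Over 16 class and treatment means, the genes among 5169 whose log2 level followed a member most closely are given as a description, since the points share libraries. For each Bcl2a1 copy and for the Bcl2a1 sum, the other copies and the sum were left out of the genes compared. Bcl2 was followed by Irf2bpl (r = 0.974), Gimap6 (r = 0.956) and Use1 (r = 0.95). For the Bcl2a1 sum they were Bcap29 (r = 0.932), Cybb (r = 0.927) and Bola2 (r = 0.916). Bcl2l11 was followed by Tent5c (r = 0.958), Mt1 (r = 0.95) and Rnf4 (r = 0.948), Bcl2l1 by Srm (r = 0.94), Ppa1 (r = 0.919) and Elp5 (r = 0.916), and Mcl1 by BC005624 (r = 0.937), Jund (r = 0.917) and Zfp87 (r = 0.913). For the other death genes they were Zbtb38 (r = 0.82), Pitpnc1 (r = 0.819) and Capns1 (r = 0.806) with Bbc3, Ly6a (r = 0.915), Itm2c (r = 0.909) and Evi2a (r = 0.905) with Pmaip1, and Wwp2 (r = 0.909), Flii (r = 0.848) and Sav1 (r = 0.844) with Bax. The copies gave AC133103.1 (r = 0.893), Zbtb20 (r = 0.863) and Cldnd1 (r = 0.833) with Bcl2a1a, Bcap29 (r = 0.935), Cybb (r = 0.927) and Zc3h12d (r = 0.908) with Bcl2a1b, and Bola2 (r = 0.914), Bcap29 (r = 0.907) and Tusc3 (r = 0.906) with Bcl2a1d.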

How the data were processed

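The authors deposited raw UMI counts per gene and antibody tag, for barcodes already chosen as cells. The file headers name Cell Ranger 6.0.1, and the submitters' processing notes add mm10 and Seurat 4.1.3 without a role. Treatment came from the hashtag names (at least 64 UMIs and 4-fold the other plus 1). Barcodes with both hashtags (1567, 943 and 1312 in sets 1 to 3) were removed, so doublets within 1 treatment remain. Cells needed 500 genes and under 10% mitochondrial UMIs. Clustering (scanpy 1.11.5, 2000 variable genes, 30 components, Leiden resolution 1) left out the members and context lists, and clusters were named after they were seen. Antibody gates used an Otsu threshold within each set.

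Sums of counts for each class (50 cells or more) went into edgeR 4.0.16 with TMM factors, filterByExpr and the quasi-likelihood test, adjusted by Benjamini-Hochberg over all genes and called under 0.05. Gate comparisons had treatment and set as covariates. The main treatment and interaction fits had no term for the set, so their p-values do not use the pairing described below. The fits were tested on simulated data. A set is 1 library holding both treatments, which pairs them: same-set deviations of follicular-like sums correlated at 0.345 to 0.442, those of different sets at -0.283 to -0.104. Deviations were taken from the mean of the 3 sets, so positive same-set values bring negative ones between sets with them. The negative values therefore add nothing to the same-set ones. Same-set correlations were 0.116 to 0.23 in transitional- and activated-like cells and 0.067 to 0.262 in germinal center-like cells. They were -0.0542 to 0.153 in marginal zone-, -0.0363 to -0.00776 in plasmablast- and -0.136 to -0.0472 in cycling-like cells. In the Zbtb32 cluster they were -0.173 to 0.0562. In the classes with negative same-set values the pairing rests on the shared library alone. Alternatives were a replicate block, DESeq2 1.42.0, no filter, other cell filters, gates and clusterings, and leaving out each set. Adding transitional- and activated-like to follicular-like cells, reclustering the other classes and blocking the IgD gate by set were chosen after seeing the data. The members, lists and tests were chosen with earlier results of these data known. All members are named, with the context genes passing in follicular-like cells and the 3 best-correlated genes per member.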

Additional observations from a re-analysis of the deposited data

Results flagged for a closer look

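A total of 7 treatment differences differed between a class and follicular-like cells by the interaction test (edgeR), each given as the class's log2 fold change minus the follicular-like one. For Bcl2 the value was -1.25 (adjusted p = 0.0467) in transitional-like and 1.23 (adjusted p = 0.0134) in germinal center-like cells. For Bcl2a1d it was 1.45 (adjusted p = 8.96e-05) in activated-like and 1.29 (adjusted p = 0.00177) in plasmablast-like cells. Bcl2a1b gave 1.35 (adjusted p = 0.00242) in activated-like cells. The Bcl2a1 sum gave 1.37 (adjusted p = 9.37e-04) in activated-like and 0.88 (adjusted p = 0.0452) in plasmablast-like cells. Each of these calls was lost on leaving out at least 1 set, as given with the test above. Groups of 3 sets are too small for a search for single outlying samples.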

How the results depend on the processing

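Over 70 gene values and 490 recomputed values, 410 kept direction and side of the threshold, 64 lost and 6 gained a call, and 10 changed sign. With the set as a block, Mcl1 in follicular-like cells (adjusted p = 0.00727), Bcl2a1b in transitional-like (adjusted p = 0.0244, over the filter on low counts through the R848 sums alone) and germinal center-like cells (adjusted p = 0.0102) passed and Bcl2a1d in the Zbtb32 cluster (adjusted p = 0.10) did not; the block changed no other call of a member between treatments. The block gave 113 genes in germinal center-like cells in place of 25, and in the interaction test 145 (transitional-like), 142 (marginal zone-like), 371 (germinal center-like) and 38 (cycling-like). DESeq2 called 82 genes in germinal center-like and 30 in plasmablast-like cells. With no filter on low counts 508 genes were called in transitional-, 351 in activated-, 303 in marginal zone-, 199 in germinal center-, 8 in plasmablast- and 422 in cycling-like cells and 497 in the Zbtb32 cluster. Clusters without treatment genes gave 1265 in transitional- and 396 in marginal zone-like cells. Gates at the top 10% gave 1101 (CD21) and 2437 (CD80). Without a filter the Bcl2a1 sum changed by 0.46 in activated-like cells, where it passed, by -0.62 in cycling-like cells, where it passed as with DESeq2 (-0.60), and by -8.66e-04 in plasmablast-like cells, where it changed sign. On reclustering it passed at -0.71 in the mixed marginal zone-like cluster, where Bcl2 changed sign (-0.15). Leaving out a set gave 725 to 1096 called genes in follicular-, 59 to 160 in transitional-, 51 to 85 in activated-, 49 to 70 in marginal zone-, 11 to 16 in germinal center-, 1 to 4 in plasmablast- and 60 to 67 in cycling-like cells, 46 to 146 in the Zbtb32 cluster and 151 to 966 in all B cells. For interactions it gave 1 to 12 (transitional-like), 3 to 10 (activated-like), 21 to 26 (marginal zone-like), 61 to 96 (germinal center-like), 74 to 125 (plasmablast-like), 1 to 10 (Zbtb32) and 0 to 3 (cycling-like), and for the CD21 and CD80 gates 716 to 949 and 2402 to 2763. The Bcl2a1 sum then ran from -2.49 to -1.87 in transitional-like, -0.88 to -0.78 in germinal center-like and -0.13 to 0.18 in plasmablast-like cells and -0.89 to -0.71 in the Zbtb32 cluster. Bcl2 ran from -0.42 to 0.28 in plasmablast-like cells and -0.00967 to 0.0538 in the Zbtb32 cluster, and in all B cells Bcl2l1 from -0.25 to 0.0735, Mcl1 from -0.0703 to 0.0238 and Bcl2a1a from -1.33 to 0.35. The cause was not tested, apart from fewer sets where a set was left out. Bcl2l1, Bbc3 and Pmaip1 rest on few UMIs outside the deepest classes, and IL-4+R848 sums of marginal zone-like cells on as few as 80 cells, which limits what could be called there.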
